A study of Capra hircus with 11 samples.

Results

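Both mature products of the miR-21 hairpin, bta-miR-21-5p and bta-miR-21-3p, were followed in the omental fat of lactating goats. They were taken by name from the deposited lists, which use bovine names (the prefix is left out below), and are 2 of the 629 miRNAs listed in every library, and both were among the 360 tested. They were chosen by name with the normalised reads of the feeding comparison known, in which the 5p arm already had a higher mean after feed deprivation. The feeding values of the arms and of their ratio are therefore given as a description, with no p-value.

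Small RNA was sequenced from omental adipose tissue, the fat of the peritoneal fold attached to the stomach. All 11 animals were Alpine goats (Capra hircus) at peak lactation, 48 ± 2 days after kidding when the experiment began, on orchardgrass hay with 35% forage and 65% concentrate for the preceding 2 weeks. The 6 feed-deprived goats had no feed in the last 48 h before slaughter, and the 5 control goats ate this diet freely until then. Each library is labelled as 1 goat, no treatment other than feeding is given, and the tissue was ground whole, so cell types were not separated.

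A miRNA hairpin is cut into a duplex of a 5p and a 3p strand. One strand, the guide, is usually kept by an Argonaute protein and silences target mRNAs, while the other, the passenger, is mostly degraded. In miR-21 the 5p strand is the guide, and its known targets in human and mouse include PDCD4, which restrains translation, and SPRY1, which restrains growth factor signalling. In those species its transcription is induced by STAT3 and AP-1, its processing is promoted by TGF-beta signalling through SMAD proteins, and it is abundant in activated macrophages, in fibroblasts of scarring tissue and in fat. The goat annotation (RefSeq, assembly ARS1.2) lists MIR21 beside VMP1, the gene it also adjoins in human and mouse, and its next protein-coding neighbour on the other side is TUBD1. Only the gene names and their order were taken from that assembly, since no source used here gives the build behind the files.

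The libraries held 16974441 to 25389788 recovered miRNA reads, and feed-deprived replicate 1, with the most reads, lists 629 miRNAs where the others list 637. Marker lists of other cell types were read beside the arms. Striated muscle miRNAs made up 31.1 to 185 CPM (reads scaled to an equal library total) in any library, with miR-208b at 0 in at least 1 of them. Epithelial miRNAs made up 1199 to 1997, leukocyte miRNAs 2108 to 5328, red cell miRNAs 6066 to 20445, endothelial miRNAs 23375 to 35607 and fibroblast miRNAs 146066 to 223931 CPM. Most of the fibroblast sum was miR-10b, and the other 6 members made up 5306 to 8064 CPM. Most of the epithelial sum was miR-192, with means of 32877 normalised reads in feed-deprived goats and 31157 in controls. The next member, miR-194, had means of 1056 and 908. In whole tissue, more cells of a type and more RNA per cell cannot be told apart.

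miR-21-5p was among the most abundant miRNAs of this fat, ranking 15 of 629 by mean CPM. It took 1.22% ± 0.496 of the reads in feed-deprived goats (SD, n = 6) and 0.625% ± 0.223 in controls (SD, n = 5). In the deposited unit, normalised reads, feed-deprived goats had a lowest value of 162221, a median of 207256 and a highest value of 341751. The control values were 200741, 106965, 85546, 137475 and 141998 normalised reads. Feed-deprived replicates 4 and 1 held the highest levels of all 11 goats, and control replicates 3 and 2 the lowest. The groups overlapped, with 4 of 6 feed-deprived goats above every control.

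The means were 234665 ± 78396 normalised reads after feed deprivation (SD, n = 6) and 134545 ± 43611 in controls (SD, n = 5), a ratio of 1.74. The log2 fold change was 0.80 ± 0.248 (SE). Leaving out any 1 goat gave log2 fold changes of 0.65 (without control replicate 3) to 0.96 (without control replicate 1). Every library had at least 76284 reads of this arm, so counting error on the log2 scale was at most 0.00522 per library, against a spread between goats of 0.46 within groups.

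miR-21-3p, the passenger strand, was far rarer and far more variable. It ranked 122 of 629. Feed-deprived goats had a lowest value of 355, a median of 1211 and a highest value of 2675 normalised reads. Controls had 412, 130, 349, 815 and 1088 normalised reads. The highest goat, feed-deprived replicate 3, stood 20.5-fold above the lowest, control replicate 2, whereas the 5p arm spanned 3.99-fold over the same goats. The groups overlapped here too, with 3 of 6 feed-deprived goats above every control.

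The means of the 3p arm were 1255 ± 855 normalised reads after feed deprivation (SD, n = 6) and 559 ± 386 in controls (SD, n = 5), a ratio of 2.25. The log2 fold change was 1.18 ± 0.591 (SE), a larger error than that of the 5p arm. Control replicate 2 weighed on it: without that goat the log2 fold change was 0.74, and without control replicate 5 it was 1.51. Reads of this arm numbered 98 to 2561 per library, which puts counting error at 0.0285 to 0.146 on the log2 scale, well below the spread of 1.15 between goats within groups.

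**Figure D1:**
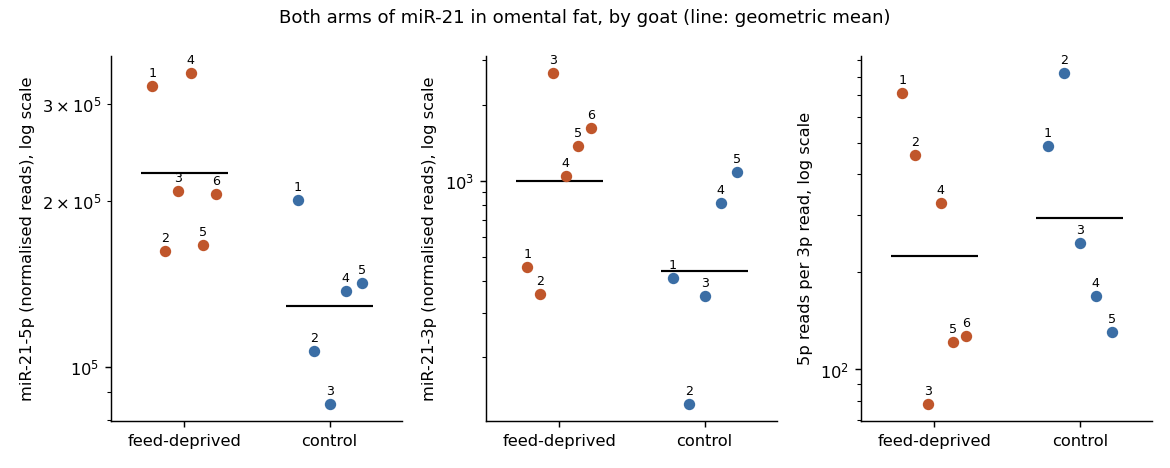
Levels of miR-21-5p (left) and miR-21-3p (middle) in normalised reads, and 5p reads per 3p read (right), for each goat on log axes, feed-deprived (n = 6) left of control (n = 5) in each panel. Points carry the replicate number and lines are geometric means. The 3p arm spans 130 to 2675 normalised reads and the 5p arm 85546 to 341751, and the groups overlap in every panel.

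The feeding comparison was fitted across all 360 tested miRNAs, with log2(normalised reads + 1) as the value. At a limma adjusted p under 0.05 it called 3 miRNAs, or 0.833% of those tested, and neither arm of miR-21 was among them. Neither arm was called in any of 10 other settings, edgeR's quasi-likelihood test and DESeq2 on the recovered reads included, or in any of 11 fits that left out 1 goat. Groups did not overlap for 6 of the 360 miRNAs (1.67%), and both arms fell outside those 6. The spread of the 5p arm between goats was 0.46 on the log2 scale, against a median of 0.43 over the tested miRNAs. Among the 13 tested miRNAs, itself included, whose mean CPM lay within a factor of 2 of its own, the 5p arm ranked 3 by spread, against a median of 0.32. The 3p arm, at 1.15, ranked 17 of the 360 by spread. Among the 45 tested miRNAs, itself included, whose mean CPM lay within a factor of 2 of its own, the 3p arm had the largest spread, against a median of 0.42.

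The 5p arm dominated the hairpin in every goat, but by amounts that differed 10.5-fold. There were 78.1 (lowest), 226 (median) and 711 (highest) 5p reads for each 3p read in feed-deprived goats. The controls had 487, 821, 245, 169 and 131. The lowest ratio belonged to feed-deprived replicate 3 and the highest to control replicate 2, and the groups overlapped over most of their range. On the log2 scale the ratio averaged 7.81 after feed deprivation and 8.19 in controls, a difference of -0.38 ± 0.644 (SE), smaller than the 1.19 between goats within groups. Without control replicate 2 the difference was -0.01, and without feed-deprived replicate 1 it was -0.72.

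As a share of the hairpin's reads, the 3p arm made up 1.26% in feed-deprived replicate 3 (exact binomial 95% interval 1.22% to 1.31%) and 0.122% in control replicate 2 (0.0988% to 0.148%). Intervals cover counting error only, since the reads carry no molecular identifiers. Group means of this share were 0.588% ± 0.439 after feed deprivation (SD, n = 6) and 0.416% ± 0.264 in controls (SD, n = 5).

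Among the 47 hairpins with both arms listed in all libraries, 29 had both arms tested. By the size of its mean log2 arm ratio, miR-21 ranked 4 of these 29 at 7.98. Just above it stood let-7a at 8.83, from a family that holds back proliferation, and just below it miR-27a at -7.86, an inhibitor of fat cell formation whose 3p arm is the abundant one. Its ratio ranged over 3.38 log2 units between goats, the third widest of the 29, against 1.64 for let-7a and 3.56 for miR-27a. Feed-deprived replicate 1 alone carried the width of miR-27a, at -5.53 where the other goats lay between -9.09 and -7.50. Without that goat miR-27a ranged over 1.59, and miR-21, still at 3.38, ranked 1 of 29. It was closely followed by miR-193a, the second widest with all goats at 3.51, which without that goat ran from -1.69 to 1.64. The spread of miR-21 within groups, 1.19, was exceeded only by miR-193a at 1.30, against 0.53 for let-7a and 0.78 for miR-27a. In limma, 0 of the 29 arm ratios differed with feeding at an adjusted p under 0.05 (0% called), and 0 had groups that did not overlap (0%).

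**Figure D2:**
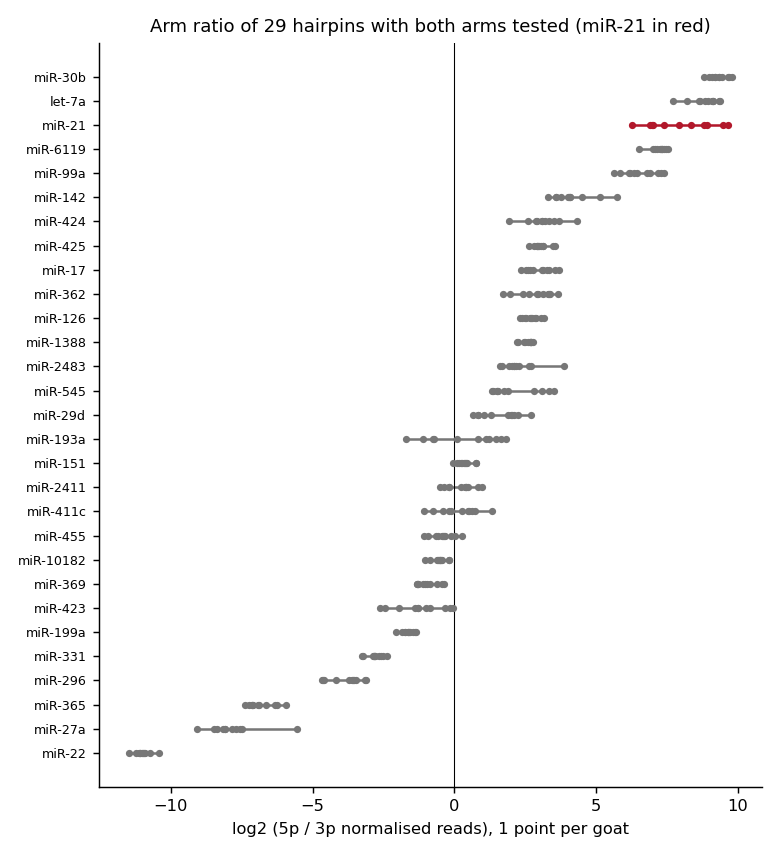
Log2 ratio of 5p to 3p normalised reads for the 29 hairpins with both arms tested, 1 point per goat and a line from the lowest to the highest of 11 goats, with miR-21 in red. miR-21 runs from 6.29 to 9.67, while let-7a, of a like mean, runs from 7.73 to 9.37.

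The arms of miR-21 did not vary together detectably. Over the 11 goats the log2 levels of 5p and 3p had a Pearson r of 0.42 (permutation p = 0.203, adjusted p = 0.407) and a Spearman rho of 0.55 (permutation p = 0.0823, adjusted p = 0.329). Without feed-deprived replicate 4 and control replicate 3, the goats farthest from the median 5p level, r was 0.32. Within the 6 feed-deprived goats r was -0.11 (exact permutation p = 0.869, adjusted p = 0.869) and rho 0.14 (exact permutation p = 0.803, adjusted p = 0.869), and r was 0.79 over the 4 left without replicates 4 and 1. The 4 p-values were adjusted together, and 5 controls are too few for a correlation of their own.

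Taken as deviations from group means, the arms had an r of 0.12, which ran from -0.07 without feed-deprived replicate 2 to 0.32 without feed-deprived replicate 1. Feed-deprived replicate 1 showed the split most plainly, with the second highest 5p level and the seventh highest 3p level of the 11 goats. By this measure, with all goats, miR-21 ranked 18 of 29 hairpins. The hairpins above it included miR-10182 at 0.97, miR-1388 at 0.96, miR-545 at 0.85, miR-22 at 0.74 and miR-142 at 0.45, and those below it let-7a at -0.21, miR-126 at -0.47 and miR-193a at -0.50. These correlations share library scaling and depth and are given as a description.

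**Figure D3:**
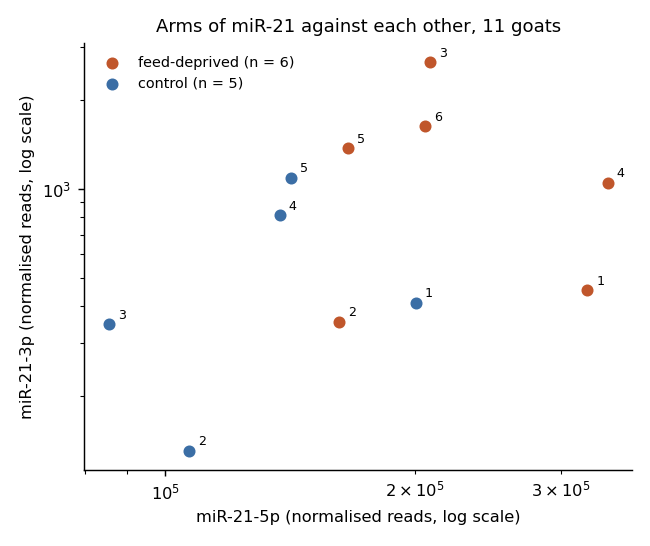
miR-21-3p against miR-21-5p in normalised reads, both on log axes, 1 point per goat with its replicate number, for feed-deprived (n = 6) and control (n = 5) goats. Feed-deprived replicates 1 and 4 are highest on the 5p axis, whereas feed-deprived replicates 3 and 6 are highest on the 3p axis (Pearson r = 0.42 over all goats).

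The arm ratio of miR-21 followed that of other hairpins in the same libraries. For each of the 28 other hairpins the log2 ratio of the more abundant to the rarer arm was taken as a deviation from its own mean over goats. The more abundant arm was set once per hairpin, by the mean log2 ratio. The median over hairpins gave 1 value per library. This value ran from -0.20 in control replicate 5 to 0.15 in control replicate 2. It rose with the miR-21 ratio, with r = 0.91 (permutation p = 2.4e-04, adjusted p = 0.0024) and rho = 0.91 (permutation p = 3e-04, adjusted p = 0.0024) over 11 goats. This comparison was added after the files were seen, and the adjustment covers only the relations reported. Without the goats farthest from the median, control replicate 5 and feed-deprived replicate 5, r was 0.96, and leaving out any 1 goat gave 0.89 to 0.94. As deviations from group means r was 0.91, and within the 6 feed-deprived goats it was 0.92 (exact permutation p = 0.025, adjusted p = 0.0571).

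Taken arm by arm, the relation was detected for the passenger strand. That strand is the denominator of the miR-21 ratio, so this is no separate support for the relation above. The same library value had r = -0.80 with miR-21-3p (permutation p = 0.0028, adjusted p = 0.0147; -0.88 without the same 2 goats) and r = 0.06 with miR-21-5p (permutation p = 0.862, adjusted p = 0.919), and the difference between these r values was not tested. Of the 28 other hairpins 20 had ratios that correlated positively with that of miR-21, with a median r of 0.28. The closest were miR-545 at 0.91, miR-142 at 0.85, miR-99a at 0.84 and miR-17 at 0.84, and the farthest was miR-369 at -0.67. Positive values were found in 13 of 18 hairpins with a mean log2 ratio toward 5p and in 7 of 10 toward 3p. The median r was higher in the former, at 0.40 against 0.15, and this difference was not tested. In miR-193a, miR-455, miR-151, miR-2411 and miR-411c the more abundant arm differed between goats. The signs of their r, 0.78 for miR-193a and 0.76 for miR-455 included, rest on that mean. Depth was compared with each arm in the same way, and log2 recovered reads had r = 0.41 with the 5p arm (permutation p = 0.207, adjusted p = 0.285; 0.14 without feed-deprived replicates 1 and 6) and 0.41 with the 3p arm (permutation p = 0.213, adjusted p = 0.285; 0.49 without the same goats). The labels name no batch. These relations and those with the leukocyte list make 16 p-values adjusted together.

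**Figure D4:**
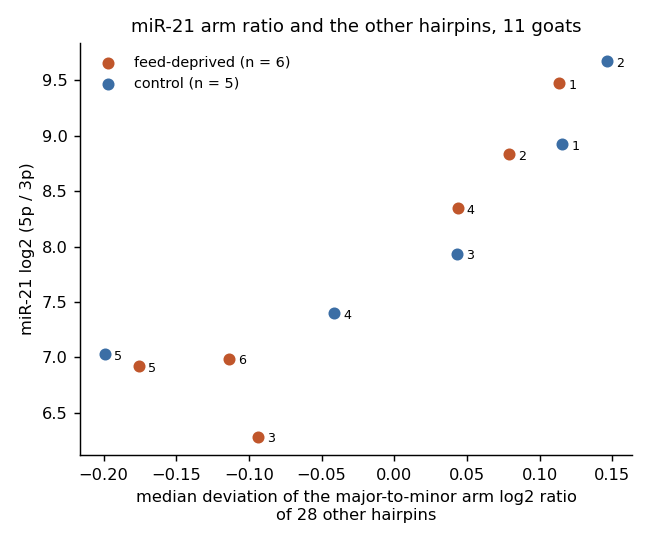
Log2 5p to 3p ratio of miR-21 against the median deviation of the major-to-minor arm log2 ratio over the 28 other hairpins, 1 point per goat with its replicate number, for feed-deprived (n = 6) and control (n = 5) goats. The points rise together from control replicate 5 at -0.20 to control replicate 2 at 0.15 (Pearson r = 0.91).

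The miRNAs whose levels were most like each arm were different ones. Likeness was the Pearson r of deviations from group means over 11 goats, among 359 other tested miRNAs, and the 6 highest and 2 lowest were named for each arm. Closest to miR-21-5p were miR-301b (0.88), of the miR-130 family that targets the fat cell regulator PPARG, and miR-487a (0.87), miR-410 (0.82), miR-380-3p (0.78) and miR-409a (0.76), all encoded in the imprinted DLK1-DIO3 region. miR-17-5p (0.79), of a cluster tied to cell proliferation, completed the 6. Lowest were miR-95 (-0.75) and miR-26b (-0.78), an abundant miRNA of fat. Leaving out 1 goat kept the 6 highest between 0.68 and 0.93. miR-487a rests on 8.97 to 43.1 normalised reads. The miR-130 family was mixed: r with miR-21-5p was 0.46 for miR-130b, 0.08 for miR-301a and -0.74 for miR-130a. With miR-21-3p, miR-301a had an r of 0.88.

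Closest to miR-21-3p were miR-545-3p (0.91), miR-34a (0.91), which p53 induces, and miR-29b (0.90), which represses collagen genes. The others were miR-136 (0.90), of the DLK1-DIO3 region, miR-142-3p (0.90), of blood-forming cells, and miR-188 (0.88). Lowest were miR-15b (-0.88), of the miR-15/16 seed family, and miR-2285da (-0.91), of a large ruminant family, at 9.40 to 22.6 normalised reads. Leaving out 1 goat kept the 6 highest between 0.83 and 0.96. The miR-15/16 family was mixed too: r with miR-21-3p was 0.80 for miR-195, 0.65 for miR-15a and 0.61 for miR-497. For miR-16a and miR-16b it was -0.32 and -0.31. The 6 names of each arm shared 0 miRNAs. miR-21-3p itself ranked 134 of 359 in likeness to miR-21-5p, and miR-21-5p ranked 129 of 359 in likeness to miR-21-3p. High values at the top of so many are a ranking, with no test.

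**Figure D5:**
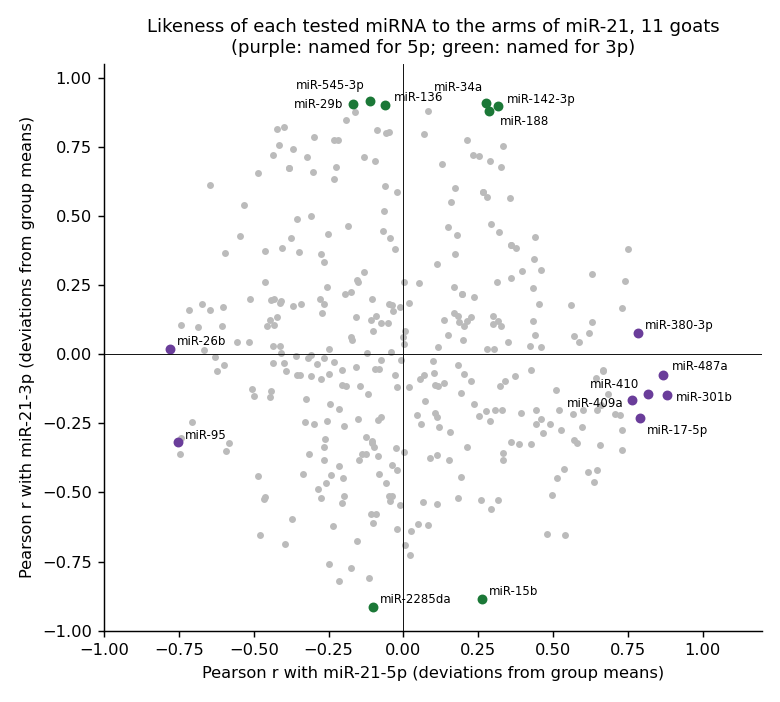
Pearson r of each tested miRNA with miR-21-5p (x axis) and with miR-21-3p (y axis), from deviations from group means over 11 goats, with the named miRNAs in purple for 5p and green for 3p. The 6 closest to the 5p arm lie between -0.23 and 0.08 on the 3p axis, and the 6 closest to the 3p arm between -0.17 and 0.31 on the 5p axis.

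miRNAs that inflammatory signals induce were described as companions of miR-21 in that role. Of 11 in the list 10 were tested, and 9 had a positive log2 fold change with feeding and 1 a negative one, with a median of 0.40 against 0.00397 over all tested miRNAs. None was called, against 0.833% of all tested. miR-223, of neutrophils and other myeloid cells, had 2.12, miR-132 had 1.15 and its cluster partner miR-212 had 1.12. miR-147 (0.46), miR-155 (0.40), miR-222 (0.39), miR-146b (0.26), miR-221 (0.21) and miR-146a (0.08) followed, and miR-181b had -0.05. Their likeness to the 5p arm had a median r of 0.53, against -0.04 over all tested miRNAs. Highest were miR-222 at 0.73, miR-221 at 0.67 and miR-212 at 0.65, and lowest miR-146b at 0.25, miR-146a at 0.20 and miR-181b at -0.41. With the 3p arm the median was -0.29.

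The leukocyte list shares 5 miRNAs with the one just described. All 9 of its members had positive values, against 183 of all 360 tested, with a median of 0.40. Of the 9, 1 was called, against 0.833% of all tested. miR-142-5p had 28704 ± 5802 normalised reads after feed deprivation (SD, n = 6) and 16568 ± 2857 in controls (SD, n = 5), which gave 0.79 on the log2 scale (limma adjusted p = 0.0371). It was above every control in 6 of 6 feed-deprived goats. Its limma adjusted p ran from 0.0291 to 0.088 with 1 goat left out and failed without feed-deprived replicates 1, 4 or 5 or control replicates 2 to 5. With all goats, limma adjusted p-values above the threshold came also from testing without a filter (0.0549), from testing only miRNAs averaging at least 10 CPM (0.053) and from a fit that had no variance trend (0.0986). The remaining members were miR-142-3p at 1.02, miR-150 at 0.35 and miR-342 at 0.12. The summed list stood at 66271 to 100864 normalised reads in feed-deprived goats and 51904 to 77262 in controls.

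Over both groups together, the leukocyte sum and miR-21-5p were high in the same goats to a degree that the adjustment left at the threshold. The largest members of that sum were miR-142-5p and miR-146a. Mean normalised reads of miR-146a were 20855 after feed deprivation and 19906 in controls. The summed list had r = 0.69 (permutation p = 0.0189, adjusted p = 0.0504) and rho = 0.73 (permutation p = 0.0152, adjusted p = 0.0486) with the 5p arm over 11 goats. Without feed-deprived replicate 6 and control replicate 3 r was 0.64 (exact permutation p = 0.059), and as deviations from group means it was 0.45. Leaving out 1 goat gave r of 0.58 (without control replicate 3) to 0.76 (without control replicate 2). With the 3p arm r was 0.22 (permutation p = 0.524, adjusted p = 0.599), and -0.08 without the same goats. All these permutations mixed the groups, so the p-values for the 5p arm take in the feeding difference, known when the arm was chosen. The r of 0.45 was not tested. Taken singly, as deviations from group means, the members had a median r of 0.31 with the 5p arm. Highest were miR-155 (0.64), miR-142-5p (0.56) and miR-223 (0.51), then miR-147 (0.32), miR-142-3p (0.31) and miR-146b (0.25). Lowest were miR-146a (0.20), miR-342 (0.05) and miR-150 (-0.20). No defining leukocyte miRNA was at 0 in any library, and their part in the 5p values was not tested.

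The TGF-beta and fibrosis list, which holds miRNAs tied to matrix production, had 13 tested members of 15. Of these 4 had positive and 9 negative log2 fold changes, against 183 positive of all 360 tested. Their median was -0.06 and 0 were called, against 0.833% of all tested. miR-29b (0.18), miR-29a (0.15), miR-200a (0.14) and miR-192 (0.09) were positive. The lowest were miR-424-5p (-0.66), miR-34a (-0.23), miR-143 (-0.20) and miR-214 (-0.17), and miR-199b (-0.10), miR-199a-5p (-0.09), miR-199a-3p (-0.06), miR-145 (-0.04) and miR-29c (-0.0087) lay closer to 0. Scaling to library totals moved the median of all tested miRNAs to 0.16, with 265 of the 360 positive. Under it 9 of the 13 list members were positive, at a median of 0.11. Their likeness to the 3p arm had a median r of 0.36, against -0.02 over all tested miRNAs. Highest were miR-34a and miR-29b, both already named above for their likeness to that arm. Lowest were miR-199b at -0.10, miR-214 at -0.13 and miR-145 at -0.30. With the 5p arm the median was -0.30, against -0.04 over all tested miRNAs.

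Other cell type lists beside these values were called in 0 members, against 0.833% of all tested. Of all 360 tested miRNAs 183 were positive (265 under library totals). Some members also stood in the lists above, so the counts are not separate from theirs. The fibroblast miR-199a-5p, miR-199a-3p, miR-199b, miR-214 and miR-145 and the epithelial miR-192 and miR-200a were in the fibrosis list. The endothelial miR-221 and miR-222 were in the inflammation list. Fibroblast miRNAs were negative in 7 of 7 (5 of 7 positive under library totals), red cell miRNAs positive in 3 of 3, endothelial miRNAs positive in 2 of 5 (3 of 5 under library totals), epithelial miRNAs positive in 6 of 7 tested and striated muscle miRNAs in 2 of 4 tested (3 of 4 under library totals). Summed fibroblast miRNAs, mostly miR-10b, were 2519121 to 5006539 normalised reads in feed-deprived goats and 3531019 to 4686183 in controls. With the 3p arm the red cell miRNAs had r of -0.77 for miR-486, -0.76 for miR-451 and 0.17 for miR-144. The sums of red cell miRNAs were 131836 to 348041 normalised reads in feed-deprived goats and 116344 to 331504 in controls. The part of these cell types in the miR-21 values was not tested.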

How the data were processed

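The deposited files, one per library, list mature miRNAs under bovine names with 1 signal value each, the authors' normalised read signal. No source used here gives the trimming, aligner, miRNA database, build or normalisation tool, which are therefore not given. Per the labels' protocols, the TruSeq Small RNA kit was used and sequenced as single 50-base reads. In every library 100% of non-zero values were whole multiples of the smallest, within 0.001 read, so whole reads were recovered, and the value of 1 read ran from 0.607 to 1.33. Adapter ligation favours some sequences, so a 5p to 3p ratio is no molar ratio, and reads shared between like sequences could not be traced.

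Of 629 miRNAs present in every list, 360 passed edgeR's filterByExpr (minimum count 10). log2(signal + 1) was compared with limma 3.58.1 (variance trend, robust) in R 4.3.3, two-sided, with Benjamini-Hochberg adjustment over the 360 and a threshold of 0.05, and fold changes are on that scale. Arm ratios, log2 of (5p + 1) over (3p + 1), were fitted alike without a trend. edgeR 4.0.16, called on the recovered reads, gave 3 miRNAs. DESeq2 1.42.0, which scales by median-ratio factors, was another alternative. Up to a constant, the deposited library factors were 0.998 to 1.003 times such factors from the recovered reads, so DESeq2 hardly changed the scaling. The limma fit was tested on simulated data. Correlations used permutation tests (100000 resamples, exact enumeration under 10 goats) in SciPy 1.17.1.

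The members, the miRNA lists and the tests were chosen with earlier results of these data known. Named miRNAs were both arms, the 6 most and 2 least alike to each by group-centred r, the neighbouring hairpins in arm ratio, and members of the inflammation, fibrosis and leukocyte lists. The relations of the arms with depth, with other hairpins and with the leukocyte sum were added after the files were seen. Of the list members, miR-590, miR-9-5p, miR-200b, miR-203 and miR-208a were not analysed here, and miR-503-5p, at 0 in at least 1 library, did not pass the filter. Replicate numbers follow accession order and pair nothing.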

Additional observations from a re-analysis of the deposited data

Results flagged for a closer look

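In 86 sets of values (each named miRNA and the miR-21 arm ratio, in each group), 2 held a goat well apart from its group, where about 1 set in 20 would by chance. One was feed-deprived replicate 1, with 3458 normalised reads of miR-223, a myeloid miRNA, against 595 to 963 in the other feed-deprived goats, and it also had the second highest miR-21-5p level. The other was control replicate 1, with 61085 normalised reads of miR-26b, against 74007 to 79353 in the other controls, and the highest miR-21-5p level among controls. miR-26b was included because it was the least like miR-21-5p in these same goats (r = -0.78, and -0.69 without control replicate 1). Its opposite level in that goat is therefore no separate observation. Neither arm of miR-21, nor their ratio, had a goat that stood apart in this way.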

How the results depend on the processing

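The log2 fold change of miR-21-5p lay between 0.77 (upper-quartile factors) and 0.96 (library totals) over 10 other settings, and 0.65 and 0.96 with 1 goat left out. For miR-21-3p these ranges were 1.15 to 1.34 and 0.74 to 1.51. The difference in log2 arm ratio lay between -0.38 and -0.36 over 4 other settings, and between -0.72 and -0.01 with 1 goat left out. The pooled r of the arms lay between 0.41 and 0.47 over 3 scalings, and between 0.24 and 0.57 with 1 goat left out. None of these changed sign or side of the threshold. The group-centred r of the arms did change sign, from -0.07 without feed-deprived replicate 2 to 0.32 without feed-deprived replicate 1. Within the feed-deprived goats r went from -0.11 to 0.79 without replicates 4 and 1. The number of miRNAs higher after feed deprivation, 3, was 7 with library totals, 9 in DESeq2, 0 when only the 190 miRNAs averaging at least 10 CPM were tested, and 1 to 4 with 1 goat left out. The number lower, 0 in limma with 42 of either direction at an unadjusted p under 0.05, was 0 in edgeR and DESeq2, 1 with library totals, 1 with upper-quartile factors, and 0 to 1 with 1 goat left out. Under the stricter filter miR-541 (mean 1.58 CPM) and miR-431 (mean 0.58 CPM), called in the main fit, were left out. There miR-142-5p had a limma adjusted p of 0.053. The causes of the changes in these numbers were not tested. The number of arm ratios called stayed at 0 in every setting run. Of the 6 miRNAs closest to each arm, 5 or 6 of the 5p names and 5 of the 3p names were shared under TMM, library totals or upper-quartile factors. No paired analysis was possible because the labels give no replicate numbers that link goats across the groups. With 98 reads of miR-21-3p in control replicate 2, depth limits that goat's ratio more than the others.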
